A study of Homo sapiens with 40 samples.

Results

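A set of 9 genes of growth factor signalling was followed in LNCaP cells, a human prostate cancer line, as MDV3100 was given to lines that keep or have lost their response to it. The genes were the ERBB receptors EGFR, ERBB2, ERBB3 and ERBB4, the fibroblast growth factor receptor FGFR3, the Sprouty inhibitors SPRY1, SPRY2 and SPRY4, and the phosphatase INPP4B. They are 9 of the 19775 genes that have a probe set of their own on the array, and each is given by its brightest probe set that the platform annotation pairs with it alone. MDV3100, also called enzalutamide, is an antiandrogen that blocks the androgen receptor. The tested lines were 7 MDV3100-resistant clones, numbered 1, 9, 10, 14, 15, 19 and 24 and labelled insensitive. They were set against 3 control LNCaP lines labelled sensitive and numbered control 1 to 3, whose titles are D+E-, D+R- and M+R-; the labels do not explain these titles. Every line was grown in RPMI-1640 with 10% fetal calf serum, plated for 3 d, and then kept for 24 h in MDV3100 at 10 µM or in the vehicle, DMSO at 0.1%. Each line and treatment has 2 replicate arrays, so 14 arrays of clones and 6 arrays of control lines stand for each treatment. Each clone is a single line, and no label says whether the replicate arrays came from separate cultures, so p-values measure the spread between lines and arrays, which may in part be technical.

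ERBB receptors bind ligands of the EGF family, pair with each other and start the RAS to ERK and the PI3K to AKT cascades. ERBB2 has no known ligand of its own and ERBB3 has a weak kinase, so the pair signals as a heterodimer. FGF receptors feed the same cascades, and Sprouty proteins are feedback inhibitors that dampen the path from these receptors to ERK. INPP4B removes a phosphate from the lipid that recruits AKT. INPP4B is known in prostate cells as a gene that androgen induces.

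The deposited values are MAS5 signals on a linear scale, each array scaled to a trimmed mean of 150.0. Differences below are in log2(signal + 16), which understates the change of dim probe sets, and a gene counts as changed at an adjusted p under 0.05 in limma. The 7 clones and 3 control lines entered as line means of their 2 replicates, except where 1 replicate number or another unit is named. Of the 9 genes, 7 passed the filter on low signal, set at a signal of 12.1. ERBB4, with a mean signal of 8.57, did not pass, and neither did SPRY4, whose mean of 14.4 rests on a few bright arrays. Over all lines, 11853 genes passed.

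The replicate numbers stood apart from each other. Over all genes tested, no culture was closest to the other replicate of its own line. The correlations between cultures here are of deviations and not of whole signals, so a negative value does not mean opposed profiles. Each array as a whole had r of at least 0.986 with some other array. The replicate 2 arrays of clones 9, 10, 14, 15, 19 and 24 resembled each other, with correlations to their best match of 0.884 to 0.961, while each correlated negatively with the replicate 1 arrays of its own line (r = -0.43 to -0.72). Arrays of 2 control lines in replicate 2 were closest to clones: those labelled control 2 to clone 1 of replicate 1 (r = 0.748, against -0.33 with control 2 of replicate 1), and those labelled control 3 to clone 15 of replicate 1 (r = 0.633). The replicate 2 arrays labelled clone 1 were closest to clone 19 of replicate 1 (r = 0.744) and not to the other clones of replicate 2. Results are given for each replicate number too, and without the replicate 2 arrays labelled control 2 and clone 1. A fit that also leaves out those labelled control 3 was added after the data were seen. Such fits leave the named lines with replicate 1 alone, while the other lines keep both replicate numbers. Group and replicate number are therefore partly confounded in them. Of 9 luminal prostate markers, 7 were measured and all 7 were above the filter; the androgen receptor gene was not analysed here. Of the other markers measured, 0 of 2 basal, 0 of 3 leukocyte, 2 of 5 fibroblast and 2 of 4 neuroendocrine genes were above it. In bulk RNA, fewer cells of a type and less RNA per cell cannot be told apart.

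The promoters shown are those of the genes called lower under MDV3100 in control lines, of which EGFR and SPRY1 were called in clones too. Each window runs from 250 bases before to 50 bases after a transcript start in RefSeq (GRCh38.p14) and is written 5′ to 3′ on the gene's strand. Capitals mark GC boxes, GGGCGG on either strand (CCGCCC when read on the gene's strand), the core site of the SP1 family. The EGFR window lies at chr7:55018767-55019066 on the plus strand, the FGFR3 window at chr4:1793043-1793342 on the plus strand, the SPRY1 window at chr4:123396545-123396844 on the plus strand, and the INPP4B window, the outermost of its 6, at chr4:142846252-142846551 on the minus strand.
EGFR: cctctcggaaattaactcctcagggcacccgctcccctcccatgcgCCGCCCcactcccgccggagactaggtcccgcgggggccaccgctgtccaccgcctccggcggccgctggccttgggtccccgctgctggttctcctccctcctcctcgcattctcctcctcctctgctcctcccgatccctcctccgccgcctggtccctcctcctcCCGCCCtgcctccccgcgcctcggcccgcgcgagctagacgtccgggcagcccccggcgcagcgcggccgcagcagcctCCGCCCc
FGFR3: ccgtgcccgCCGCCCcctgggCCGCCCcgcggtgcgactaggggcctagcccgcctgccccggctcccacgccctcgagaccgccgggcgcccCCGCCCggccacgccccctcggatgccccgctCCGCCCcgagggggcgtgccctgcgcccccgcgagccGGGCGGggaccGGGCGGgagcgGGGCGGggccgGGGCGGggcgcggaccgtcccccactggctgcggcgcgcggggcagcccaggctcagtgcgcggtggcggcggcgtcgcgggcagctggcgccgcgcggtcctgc
SPRY1: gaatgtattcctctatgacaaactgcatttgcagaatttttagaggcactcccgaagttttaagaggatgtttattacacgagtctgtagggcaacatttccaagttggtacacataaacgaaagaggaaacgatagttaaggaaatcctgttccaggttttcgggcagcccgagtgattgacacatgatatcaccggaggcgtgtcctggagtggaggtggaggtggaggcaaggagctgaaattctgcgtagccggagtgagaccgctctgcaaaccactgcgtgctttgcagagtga
INPP4B: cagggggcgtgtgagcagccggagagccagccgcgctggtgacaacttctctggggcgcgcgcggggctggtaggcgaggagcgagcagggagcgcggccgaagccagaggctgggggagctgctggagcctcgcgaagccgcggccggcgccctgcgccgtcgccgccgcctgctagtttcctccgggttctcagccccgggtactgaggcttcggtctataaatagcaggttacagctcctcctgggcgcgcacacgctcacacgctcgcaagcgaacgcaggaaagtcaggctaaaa
The FGFR3 window holds 8 GC boxes in 86.3% G and C, and the EGFR window holds 3 in 75.3% G and C. The SPRY1 window, at 47.7% G and C, and the INPP4B window, at 68.7%, hold none; a further SPRY1 start, at chr4:123398136-123398435, holds 2, and a further EGFR start, at chr7:55109589-55109888, holds none. Of 35116 promoter windows of this length, 45% hold at least 1 GC box. The half-site of the androgen receptor, AGAACA on either strand (TGTTCT), occurs in 14.8% of them and in none of the 4 windows printed, while the further EGFR window holds 1. A match here is a run of letters only, and its absence says nothing of the factor. ERBB3 has no window in the table used.

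EGFR fell under MDV3100 in both clones and control lines. In replicate 1, the clones had 138.1, 174.3 and 190.1 signal units as their lowest, median and highest EGFR values in MDV3100, against 171.0, 214.9 and 247.1 in DMSO. The 3 control lines of replicate 1 had 220.8, 259.9 and 228.8 in MDV3100, against 269.5, 310.9 and 300.5 in DMSO. The ranges of the clones overlapped between the treatments, although each of these 10 cultures was lower in MDV3100. In replicate 2, the clones had 134.3, 179.5 and 188.4 in MDV3100 as lowest, median and highest, against 160.4, 197.6 and 240.7 in DMSO. The control lines of replicate 2 had 180.3, 167.4 and 145.2 in MDV3100, against 220.5, 184.4 and 203.2 in DMSO. EGFR was lower in MDV3100 in 19 of 20 cultures, the exception being clone 15 of replicate 2, and 35 of the 11853 genes (0.295%) were lower in at least 19. The response averaged -0.24 ± 0.05 in clones (SE, n = 7 lines, limma adjusted p = 0.0330) and -0.29 ± 0.07 in control lines (SE, n = 3 lines, adjusted p = 0.0205). In replicates 1 and 2 it was -0.27 and -0.22 in clones, and -0.30 and -0.28 in control lines. The 5 EGFR probe sets above the filter all had a negative mean response in both groups, between -0.24 and -0.02 in clones and between -0.29 and -0.17 in control lines. From brightest to dimmest, they were lower in 19, 16, 14, 11 and 11 of 20 cultures. The calls belong to the brightest, since the second was not called in clones (-0.11, adjusted p = 0.344) or control lines (-0.17, adjusted p = 0.202). The difference in response between clones and control lines was 0.04, with a 95% interval of -0.14 to 0.22, and was not called (adjusted p = 0.846).

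SPRY1, whose protein inhibits the path from these receptors to ERK, fell in both groups as well. In replicate 1, the clones had 219.5, 248.0 and 475.2 signal units as lowest, median and highest SPRY1 values in MDV3100, against 222.1, 368.9 and 566.1 in DMSO. The control lines of replicate 1 had 506.6, 474.2 and 410.4 in MDV3100, against 767.2, 526.0 and 694.0 in DMSO. The clones reached lower values than the control lines in each treatment, and their ranges overlapped. In replicate 2, the clones had 226.5, 336.3 and 352.3 in MDV3100 as lowest, median and highest, against 315.9, 450.1 and 524.7 in DMSO. There the control lines had 448.4, 427.2 and 325.8 in MDV3100, against 657.7, 519.0 and 396.2 in DMSO. SPRY1 was lower in MDV3100 in 18 of 20 cultures, all but clone 9 of replicate 1 and clone 24 of replicate 2. The response was -0.41 ± 0.06 in clones (SE, n = 7, limma adjusted p = 0.0140) and -0.42 ± 0.09 in control lines (SE, n = 3, adjusted p = 0.0117). The largest fall in a clone was that of clone 9 in replicate 2, to 257.2 in MDV3100, against 524.7 in DMSO. The difference between the groups' responses was 0.02, with a 95% interval of -0.22 to 0.26.

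EGFR and SPRY1 were the 2 of the 7 measured genes called in clones, where 0.801% of all genes were called, 0.464% as lower. Both calls in clones lapsed without the replicate 2 arrays labelled control 2 and clone 1, at -0.26 for EGFR (adjusted p = 0.116) and -0.40 for SPRY1 (adjusted p = 0.0609). Of the 7 fits that left out 1 clone, the EGFR call held in 1, that without clone 24 (adjusted p up to 0.0935). The SPRY1 call held in 6, all but the fit without clone 10 (adjusted p = 0.0595).

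FGFR3 fell in the control lines and its response differed between the groups. The control lines of replicate 1 had 79.4, 44.7 and 59.9 signal units of FGFR3 in MDV3100, against 138.8, 94.0 and 123.5 in DMSO. Those of replicate 2 had 70.8, 292.7 and 223.1 in MDV3100, against 209.9, 357.5 and 309.4 in DMSO. All 6 control cultures were lower in MDV3100, by the widest margin in control 1 of replicate 2. The response in control lines was -0.76 ± 0.11 (SE, n = 3, limma adjusted p = 0.00131), and it was called in all 3 fits that left out 1 control line (adjusted p up to 0.0254). In clones, the direction depended on the replicate number. In replicate 1, the lowest, median and highest FGFR3 values in clones were 51.8, 105.6 and 164.6 in MDV3100, against 78.5, 150.2 and 205.7 in DMSO, and all 7 clones were lower in MDV3100. In replicate 2 they were 268.2, 336.1 and 572.9 in MDV3100, against 250.2, 282.6 and 442.1 in DMSO, and 2 of 7 clones were lower. The response in clones was -0.40 in replicate 1 alone (adjusted p = 0.00883, beside 1.4% of all genes called) and 0.23 in replicate 2 alone (adjusted p = 0.695), and -0.09 ± 0.07 over both (adjusted p = 0.587).

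The response of FGFR3 was higher in clones than in control lines by 0.67 ± 0.13 (SE, 95% interval 0.39 to 0.95, limma adjusted p = 0.0355), in a contrast that called 0.717% of all genes. It was 0.41 in replicate 1, where all 7 clones lay above the 3 control lines (3.32% of all genes did not overlap there), and 0.93 in replicate 2, where 6 of 7 did. Neither replicate number alone passed the test (adjusted p = 0.212 and 0.171). Without the replicate 2 arrays labelled control 2 and clone 1 the difference was 0.77 (adjusted p = 0.0162). The call was lost without any 1 of controls 1 and 3 and clones 10, 14, 19 and 24 (adjusted p up to 0.247). It was also lost with the replicate number as a block (adjusted p = 0.0526). That fit took the 20 cultures as units in place of line means and left the difference at 0.67.

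INPP4B fell in the control lines. The control lines of replicate 1 had 118.0, 44.1 and 142.2 signal units in MDV3100, against 248.1, 108.0 and 262.8 in DMSO. Those of replicate 2 had 128.3, 202.0 and 108.7 in MDV3100, against 298.2, 246.1 and 204.9 in DMSO. All 6 were lower in MDV3100, and the smallest fall, 0.27 on the log2 scale below DMSO, was in the arrays labelled control 2 of replicate 2. The response was -0.84 ± 0.12 (SE, n = 3, limma adjusted p = 0.00113), and the 3 INPP4B probe sets above the filter responded by -0.84, -0.55 and -0.34. In clones of replicate 1, INPP4B had 49.4, 101.7 and 213.5 in MDV3100 as lowest, median and highest, against 128.8, 139.4 and 237.9 in DMSO. In clones of replicate 2 the values were 173.2, 290.6 and 401.6 in MDV3100, against 200.6, 310.7 and 366.3 in DMSO. In replicate 1, clones 9, 10, 14 and 15 were lower by 0.44 to 1.15 and clones 1, 19 and 24 ranged from -0.15 to 0.14. In replicate 2, all 7 clones lay between -0.20 and 0.13 and above the 3 control lines (3.8% of all genes did not overlap there). The response in clones was -0.24 ± 0.08 (adjusted p = 0.155), and the difference from control lines, 0.60 ± 0.14 (95% interval 0.29 to 0.90), was not called (adjusted p = 0.0752). It was 0.73 and called without the replicate 2 arrays labelled control 2 and clone 1 (adjusted p = 0.0327), a fit without the control culture of the smallest fall. Of 10 fits that left out 1 line, the difference was called in 0 (adjusted p up to 0.364). With the second INPP4B probe set it was 0.34 (adjusted p = 0.361). In clones the 3 probe sets responded by -0.24, -0.21 and 0.11.

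EGFR, FGFR3, SPRY1 and INPP4B were thus the 4 of 7 genes called in the control lines, where 10.1% of all genes were called, 5.06% as lower. Of the 7 luminal markers, 2 that androgen drives were called lower there, TMPRSS2 at -1.05 and KLK2 at -1.50 (limma adjusted p = 0.00107 and 0.00564). Over the 7, 5 were negative and 2 positive with a median of -0.15, and in replicate 2 alone 3 were negative and 4 positive. The 3′ to 5′ signal ratio of the actin control probes, a measure of RNA integrity and amplification, averaged 5.11 ± 1.28 in MDV3100 and 3.79 ± 0.529 in DMSO in control lines of replicate 1 (SD, n = 3 arrays each). In replicate 2 the ratios were 3.57 and 3.46. The control lines' responses in replicate 2 alone were -0.28 for EGFR, -0.70 for FGFR3, -0.36 for SPRY1 and -0.74 for INPP4B. None of the 4 genes was called there, where 0.0506% of all genes were. The part of this ratio in the responses was not tested. The EGFR and SPRY1 calls in control lines were each lost without control 1 or without control 3 (adjusted p up to 0.111 and 0.136).

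**Figure D1:**
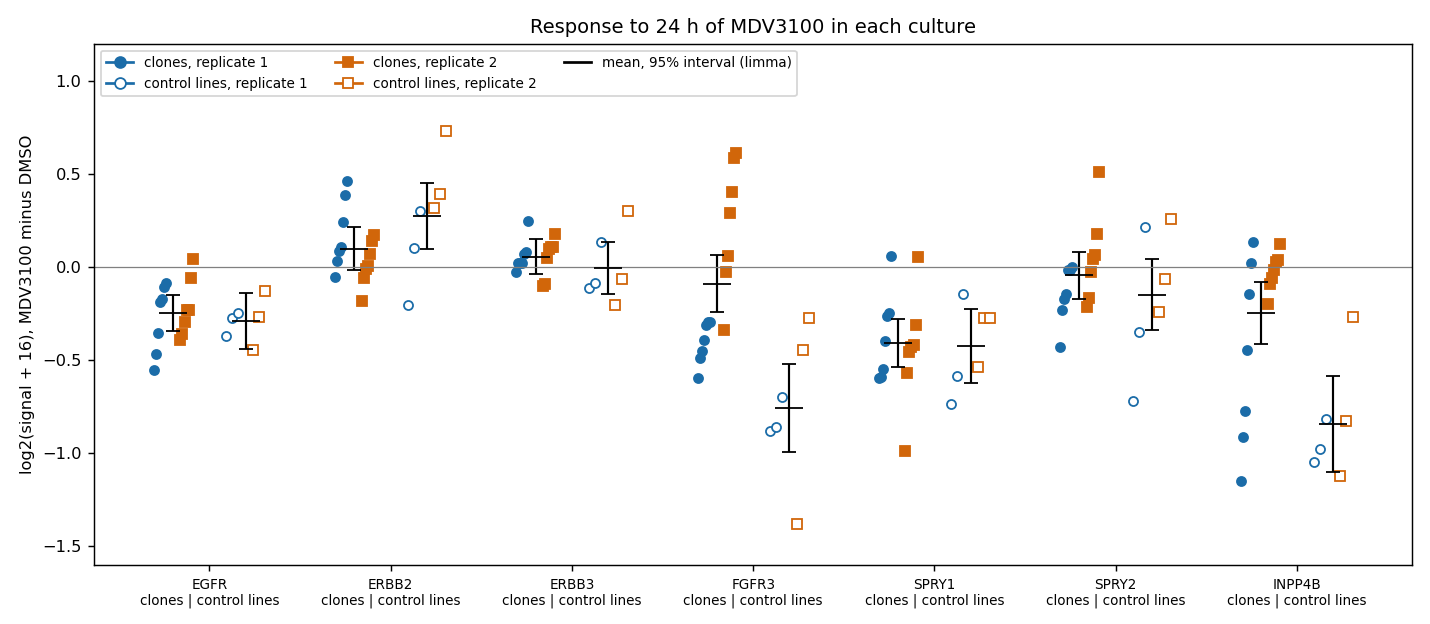
Response of each gene to MDV3100 in 20 cultures, as log2(signal + 16) in MDV3100 minus DMSO; filled symbols are clones, open symbols control lines, circles replicate 1 and squares replicate 2, and black bars the limma mean with its 95% interval. EGFR and SPRY1 lie below 0 in nearly every culture of both groups, while FGFR3 and INPP4B lie below 0 in all 6 control cultures. In clones FGFR3 is below 0 in all 7 of replicate 1 and in 2 of 7 of replicate 2. INPP4B is below 0 in 5 of 7 clones of replicate 1 and in 4 of 7 of replicate 2.

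**Figure D2:**
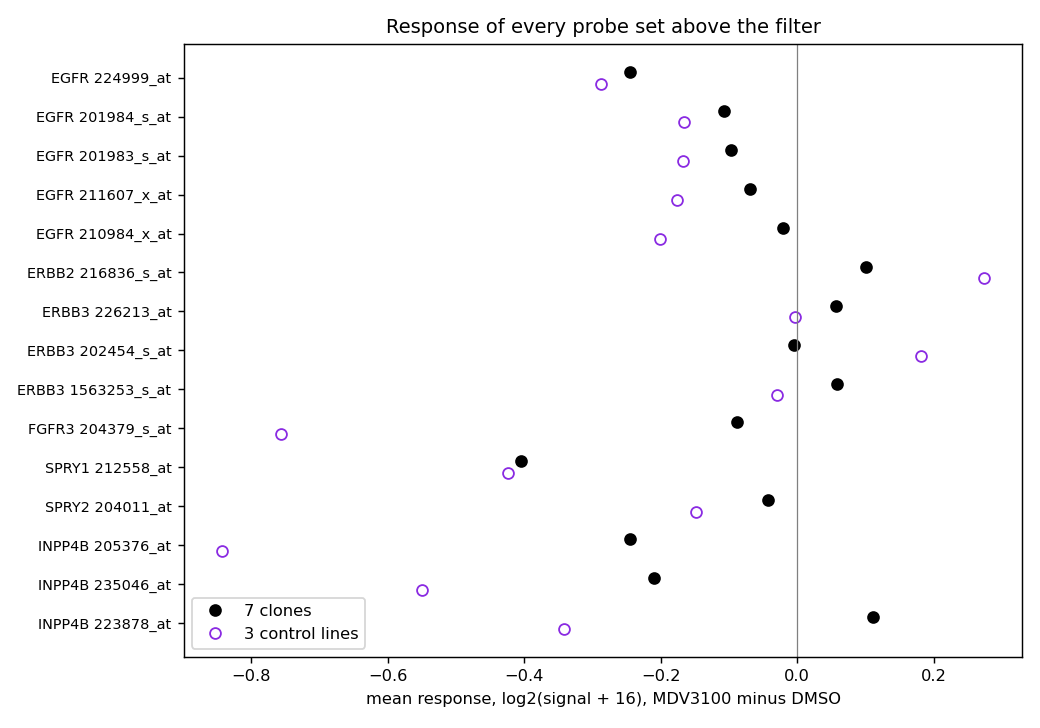
Mean response of the 15 probe sets of these genes above the filter, in log2(signal + 16), MDV3100 minus DMSO, filled for 7 clones and open for 3 control lines. All 5 EGFR probe sets are at or left of -0.02 in both groups, and the 3 INPP4B probe sets lie between -0.84 and -0.34 in control lines.

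ERBB2, ERBB3 and SPRY2 were not called for a response in either group. ERBB2 responded by 0.27 ± 0.08 in control lines (SE, limma adjusted p = 0.0516) and by 0.10 ± 0.05 in clones (adjusted p = 0.397). The control lines of replicate 2 had 697.9, 631.0 and 635.6 signal units of ERBB2 in MDV3100, against 527.8, 501.8 and 376.6 in DMSO, and there all 3 lay above every clone in response (3.8% of all genes did not overlap there). In replicate 1 the ERBB2 response of control lines was 0.07, within the range of the clones. ERBB3 responded by 0.06 in clones (95% interval -0.04 to 0.15) and by less than 0.01 in size in control lines (interval -0.14 to 0.14), though its second probe set responded by 0.18 in control lines. SPRY2, another Sprouty gene, responded by -0.04 in clones (interval -0.17 to 0.08) and by -0.15 in control lines (interval -0.34 to 0.04).

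The 2 genes below the filter are given by value only. ERBB4, the remaining ERBB receptor, ranged from 3.1 to 22.8 signal units in clones and from 6.2 to 15.9 in control lines in MDV3100, against 1.4 to 15.5 in clones and 5.2 to 12.2 in control lines in DMSO. SPRY4 ranged from 5.1 to 81.3 in clones and from 5.5 to 37.1 in control lines in MDV3100, against 0.6 to 42.8 in clones and 5.2 to 21.0 in control lines in DMSO. The ranges of clones and control lines overlapped for both genes in each treatment.

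**Figure D3:**
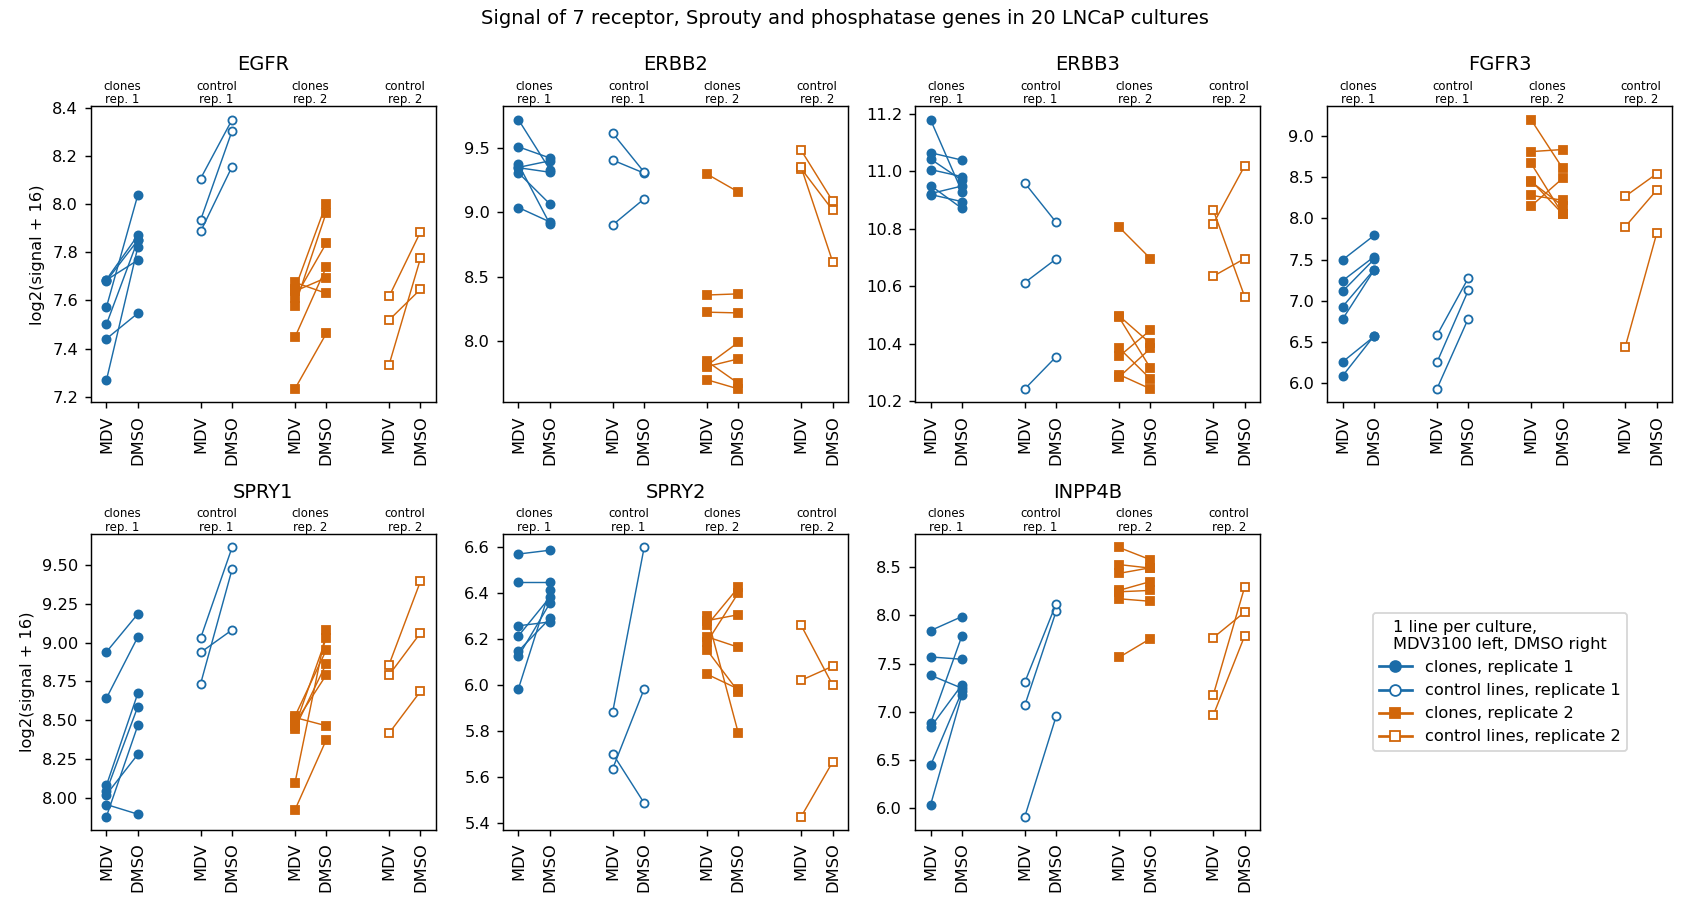
Signal of the 7 genes above the filter in each culture, as log2(signal + 16), with MDV3100 and DMSO of 1 culture joined; filled symbols are clones, open symbols control lines, blue circles replicate 1 and orange squares replicate 2. FGFR3 and INPP4B are higher in most replicate 2 cultures than in replicate 1, and ERBB2 is lowest in 6 of the 7 clones of replicate 2.

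Levels were next compared between clones and control lines. In DMSO none of the 7 genes was called, in a comparison that called 0.118% of all genes; at an unadjusted p under 0.05 it would list 2880 genes. SPRY1 came closest, at -0.53 ± 0.11 (SE, 95% interval -0.76 to -0.30, limma adjusted p = 0.0543). EGFR differed in replicate 1, where all 7 clones, at 171.0 to 247.1 signal units, lay below the 3 control lines, at 269.5 to 310.9 (12.1% of all genes did not overlap there). That EGFR difference was -0.45 (adjusted p = 0.0319, beside 6.12% of all genes called) in replicate 1 and -0.01 in replicate 2, where the clones at 160.4 to 240.7 enclosed the control lines at 184.4 to 220.5. The replicate number at which EGFR differed depended on the probe set, since the second brightest differed by -0.03 in replicate 1 and -0.41 in replicate 2, and another of the 5 above the filter by -0.53 and -0.51. With the replicate 2 arrays labelled control 2, control 3 and clone 1 left out, the EGFR difference in DMSO was -0.39 (adjusted p = 0.0498). That fit left controls 2 and 3 with replicate 1 alone, so it leans on the replicate number at which EGFR differed. In control lines EGFR in DMSO was higher in replicate 1 than in replicate 2 by 0.50 (limma adjusted p = 0.114). In replicate 1 too, ERBB3 in DMSO was higher in all 7 clones, at 1856.3 to 2087.9, than in the control lines, at 1293.0 to 1794.2. In replicate 2, 6 of 7 clones lay below the control lines, and the ERBB3 difference was 0.32 in replicate 1 and -0.37 in replicate 2 (adjusted p = 0.0701 and 0.0827). The second ERBB3 probe set had 0.33 and -0.05 there and the third 0.22 and 0.16, so the negative value of replicate 2 was not shared by all probe sets.

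In MDV3100, 5 of the 7 genes were called between clones and control lines, where 8.96% of all genes were called, 4.7% as higher and 4.26% as lower. FGFR3 was higher in clones by 0.82 ± 0.19 (SE, limma adjusted p = 0.0268), SPRY2 by 0.41 ± 0.10 (adjusted p = 0.0315) and INPP4B by 0.60 ± 0.17 (adjusted p = 0.0470). The INPP4B difference was 0.24 in replicate 1 alone (adjusted p = 0.696) and 0.97 in replicate 2 alone (adjusted p = 0.0235). With the second INPP4B probe set it was 0.52 and not called (adjusted p = 0.176). ERBB2 was lower in clones, with a difference of -0.59 ± 0.17 (clones minus control lines, adjusted p = 0.0470), and so was SPRY1, at -0.51 ± 0.13 (adjusted p = 0.0395). SPRY2 ranged from 47.3 to 79.0 signal units in clones of replicate 1, against 33.7 to 43.0 in control lines, with no overlap (11.3% of all genes did not overlap there). In replicate 2 SPRY2 ranged from 50.1 to 62.9 in clones, against 27.0 to 60.6 in control lines. With the replicate number as a block, and the 20 cultures as units in place of line means, the differences were the same. SPRY2 was then the 1 gene of the 5 still called (adjusted p = 0.0396). These calls rested on few lines: each of the 5 was lost without control 1, without control 2 and without control 3, with adjusted p up to 0.179 for ERBB2 and 0.135 for FGFR3. Of 10 fits that left out 1 line, FGFR3 was called in 6, SPRY2 and INPP4B in 3 each, SPRY1 in 2 and ERBB2 in 1. Without the replicate 2 arrays labelled control 2 and clone 1, FGFR3 (1.14, adjusted p = 0.0242) and SPRY2 (0.41, adjusted p = 0.0498) were called. Without those labelled control 3 as well, FGFR3 (1.42, adjusted p = 0.00223), SPRY2, SPRY1 and EGFR (-0.36, adjusted p = 0.0374) were.

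Some markers of other cell types also differed in MDV3100. The fibroblast marker COL1A1 was lower in clones, with a difference of -0.61 (limma adjusted p = 0.0391), and so was the neuroendocrine marker ENO2, at -0.56 (adjusted p = 0.0349). COL1A1 was called lower in replicate 1 alone (adjusted p = 0.0124) but not in replicate 2 alone (-0.21, adjusted p = 0.554). ENO2 differed by -0.76 and -0.36 in replicates 1 and 2 alone and was called in neither (adjusted p = 0.0719 and 0.177). Of the 2 neuroendocrine markers tested, the other, SYP, had a positive difference, and the median was -0.12. Fibroblast markers summed to 125.5 to 191.9 signal units in clones of replicate 1 and 81.0 to 189.6 in clones of replicate 2, against 180.8 to 362.5 and 127.4 to 181.0 in control lines, over both treatments. DCN and LUM, which fibroblasts express with COL1A1, had mean signals of 3.09 and 2.12, and COL1A2 too was below the filter. Neuroendocrine markers summed to 99 to 188.6 and 67.7 to 280.9 in clones, against 127.6 to 357.9 and 106.2 to 183.6 in control lines, and CHGA had a mean signal of 1.25. The part of these markers in the level differences was not tested.

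**Figure D4:**
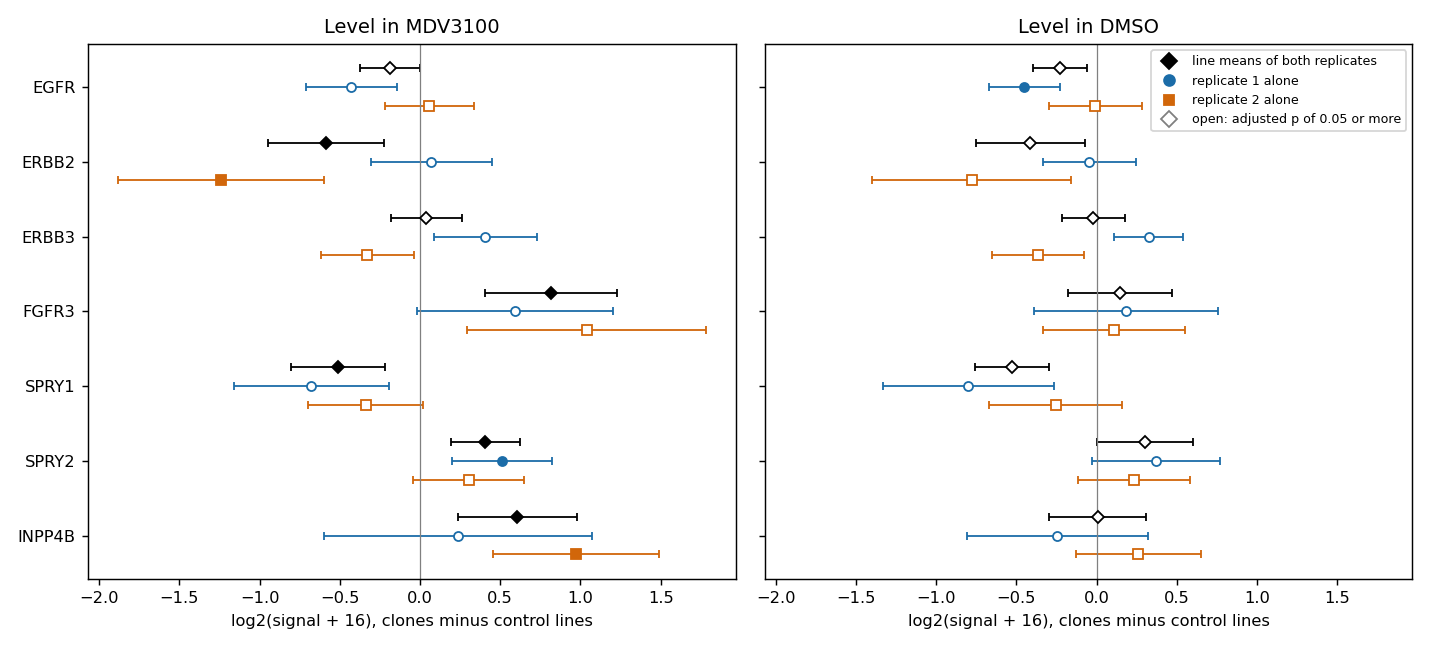
Difference in level of each gene, clones minus control lines, in log2(signal + 16), in MDV3100 (left) and DMSO (right), with 95% intervals; diamonds are line means of both replicate numbers, circles replicate 1 alone and squares replicate 2 alone, filled where the adjusted p is under 0.05. The ERBB2 difference in MDV3100 is -1.24 in replicate 2 and 0.07 in replicate 1.

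The ERBB2 difference depended on the replicate number. In MDV3100 the clones of replicate 2 had 192.0, 213.7 and 612.4 signal units of ERBB2 as lowest, median and highest, against 697.9, 631.0 and 635.6 in the control lines. In replicate 1 the clones had 508.7, 635.3 and 825.1, against 661.2, 462.1 and 766.3 in the control lines. The difference was -1.24 in replicate 2 (limma adjusted p = 0.0226, beside 19.6% of all genes called), where all 7 clones lay below the control lines (14.9% of all genes did not overlap there), and 0.07 in replicate 1 (adjusted p = 0.810). The highest value in clones of replicate 2 belonged to clone 1, which stood apart from the other clones there. Without clone 1 the ERBB2 difference over both replicate numbers was -0.69 in MDV3100 (adjusted p = 0.00154, beside 18.6% of all genes called) and -0.52 in DMSO (adjusted p = 0.00358, beside 17.9%). Without the replicate 2 arrays labelled control 2 and clone 1 it was -0.50 in MDV3100 (adjusted p = 0.135) and -0.41 in DMSO (adjusted p = 0.210), and neither was called.

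Between the replicate numbers themselves, in DMSO, 4 of the 7 genes were called over the 10 lines, where 29.6% of all genes were. In replicate 1 minus replicate 2, ERBB2 differed by 0.84 ± 0.17 (SE, n = 10 lines, limma adjusted p = 0.00569), ERBB3 by 0.35 ± 0.11 (adjusted p = 0.0398), FGFR3 by -1.13 ± 0.16 (adjusted p = 0.00134) and INPP4B by -0.68 ± 0.17 (adjusted p = 0.0122). ERBB2 in clones 9 to 24 had 464.3 to 658.6 signal units in replicate 1 and 182.0 to 314.0 in replicate 2. In a test added after the data were seen, the ERBB3 difference between replicate numbers was 0.55 in clones and -0.14 in control lines. Their contrast was 0.69 ± 0.15 (adjusted p = 0.0154), in a test that called 18.1% of all genes; the same contrast was 0.73 for ERBB2 (adjusted p = 0.114). The second ERBB3 probe set differed between replicate numbers by 0.22 over all lines and was not called. Of 10 fits that left out 1 line, the ERBB3 call between replicate numbers held in 4 (limma adjusted p up to 0.0906). The second INPP4B probe set was not called either (-0.35, adjusted p = 0.157), while the second EGFR probe set was (0.45, adjusted p = 0.00421). The actin ratio in DMSO averaged 4.06 ± 0.460 in replicate 1 and 3.14 ± 0.275 in replicate 2 in clones (SD, n = 7 arrays each), and 3.79 and 3.46 in control lines. Its part in these differences was not tested.

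**Figure D5:**
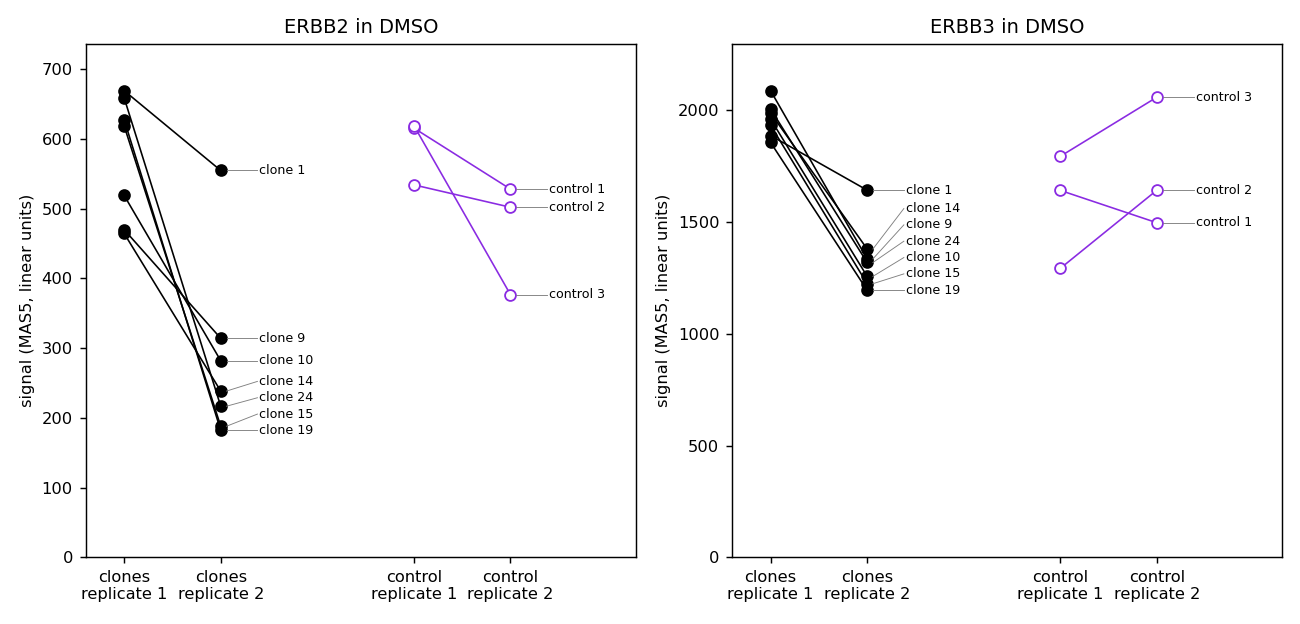
ERBB2 and ERBB3 signal in DMSO for each line, replicate 1 joined to replicate 2, filled for clones and open for control lines, on a linear axis from 0. ERBB2 in clones 9 to 24 is at 182.0 to 314.0 in replicate 2, while clone 1 stays at 554.5; ERBB3 is lower in replicate 2 in all 7 clones and in 1 of the 3 control lines.

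The neighbouring pathway was followed through 8 lists with 90 genes, of which 55 were tested. In control lines, 4 of the 55 rose under MDV3100 and 1 fell, with a median response of 0.12 beside 0.01 over all genes. These 5 are a share near that of all genes called there, 10.1%, of which 5.07% rose, so the count is no result about the pathway. Those that rose were HBEGF, a ligand of EGFR and ERBB4 (0.58, limma adjusted p = 0.0151), GAB1, an adaptor of both receptor families (0.42, adjusted p = 0.0117), EGR1, an immediate early transcription factor downstream of ERK (0.40, adjusted p = 0.0201), and CBLB, a ubiquitin ligase that turns receptors over (0.36, adjusted p = 0.0480). The gene that fell was LRIG1, an inhibitor of ERBB receptors (-0.30, adjusted p = 0.0153). In clones, 1 of 55 rose, EGR1 (0.32, adjusted p = 0.0393), where 0.801% of all genes were called, 0.337% as higher. The median of the 55 in clones was 0.003 on the log2 scale. For the difference in response, 0 of 55 were called, with a median of -0.08; limma called 0.717% of all genes there, and 1747 of them had an unadjusted p under 0.05.

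Between clones and control lines in MDV3100, 4 of the 55 were lower in clones and none was higher, with a median of -0.19 beside -0.01 over all genes. Of all genes, 4.26% were called lower and 4.7% higher in that comparison. HBEGF differed by -0.97 ± 0.14 (clones minus control lines, SE, limma adjusted p = 0.00769), and by -0.91 and -1.03 in replicates 1 and 2 alone (adjusted p = 0.0185 and 0.0182). SPRED1, an inhibitor of RAS to RAF signalling related to the Sproutys, differed by -0.53 (adjusted p = 0.0396). In replicates 1 and 2 alone SPRED1 differed by -0.21 and -0.85 (adjusted p = 0.672 and 0.0324). The phosphatase INPP5A differed by -0.36 (adjusted p = 0.0329) and PIK3CD, a catalytic PI3K subunit, by -0.34 (adjusted p = 0.0336). Neither was called in replicate 1 or 2 alone, at -0.42 and -0.30 for INPP5A and -0.54 and -0.13 for PIK3CD. All 7 tested PI3K subunits and kinases, and all 7 tested phosphoinositide and AKT phosphatases other than INPP4B, had a negative difference, with 1 call in each list. In replicate 1 alone, 4 of the 7 were negative in each list, and in replicate 2 alone 6 and 7 were. In DMSO 0 of the 55 were called by limma, where 14 of all genes (0.118%) were, and the median was -0.11; at an unadjusted p under 0.05, 2880 of all genes would be listed. Between replicate numbers in DMSO, 21 of the 55 were called, 18 of them higher in replicate 1, beside 29.6% of all genes called and 18.6% called higher. They included IL17RD, a feedback inhibitor of FGF signalling (0.94), the EGFR ligand TGFA (0.82), MYC (0.78) and FGFR1 (0.54), while KLB, a co-receptor for FGF, was lower in replicate 1 (-0.47).

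Likeness of pattern was measured over the 40 arrays, after the mean of each replicate number was removed. The arrays share lines and replicate numbers, so the correlations are descriptive. Between the genes themselves, EGFR and SPRY1 had r = 0.675, ERBB2 and ERBB3 r = 0.620, and EGFR and ERBB3 r = -0.56. The genes closest to ERBB2 were ARHGAP35 (r = 0.935) and SMAD3 (r = 0.933), and those closest to ERBB3 were ZDHHC2 (r = 0.901) and YBEY (r = 0.886). INPP4B was closest to CENPN (r = 0.834) and HES6 (r = 0.810), and FGFR3 to BBS4 (r = 0.793) and PXN-AS1 (r = 0.736). SPRY1 was closest to RIMS1 (r = 0.756) and COBLL1 (r = 0.736), EGFR to RAPGEF5 (r = 0.742) and ZNF813 (r = 0.737), and SPRY2 to PRR15L (r = 0.676) and HADH (r = 0.655).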

How the data were processed

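RNA was amplified with the NuGEN Ovation system and hybridised as biotin-labelled cDNA, per the labels' protocols. The deposited values are MAS5 intensity signals per probe set, per the submitters' processing notes; the version and other settings are not given in the sources used here. The authors' scaling was kept. Of 54675 probe sets, 41097 pair with 1 gene in the platform annotation, 1801 with several and 11777 with none. The brightest probe set of each gene with a mean log2(signal + 16) of at least the median over all probe sets (4.81, a signal of 12.1) was kept, for 11853 genes. limma 3.58.1 in R 4.3.3 was fitted across all of them (lmFit, eBayes, Benjamini-Hochberg). On simulated data, the fit of the clones' response recovered 100% of 200 genes changed by 0.8 on the log2 scale among 13669, with 11 false calls. Smaller changes were not simulated. The simulated noise was independent, with no shift between replicate numbers and the same change in every clone. The recovery therefore checks the code and is not a rate for these data.

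Groups came from the labels. The unit was the line: the mean of its 2 replicates, for MDV3100 minus DMSO of the same line and number, for levels, and replicate 1 minus replicate 2. MDV3100 and DMSO arrays of 1 line and number deviated together (r 0.479 to 0.874 over 20 pairs), which is the basis of the pairing. Precision is limited by the number of arrays and lines. Alternatives changed the pseudocount, filter, normalization, probe set, replicate number, block and variance trend, or left out a line or doubtful arrays. The block fit took the 20 cultures as units, with a term for the replicate number and none for the line.

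All 9 members are named, with up to 3 called genes per list and comparison and the 2 genes most like each member. Members and lists were chosen with earlier results of these data known. Promoter windows are from RefSeq.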

Additional observations from a re-analysis of the deposited data

Results flagged for a closer look

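A value at the end of a group was singled out where its gap to its neighbour was large against the group's whole range (Dixon's test). This was done for 81 groups of arrays or cultures, of which 6 stood out; chance gives about 1 in 20. Clone 1 was the highest clone of replicate 2 in MDV3100 for ERBB2 (gap over range 0.588), ERBB3 (0.592) and SPRY4 (0.729), the last at 81.3 signal units on a gene below the filter. These 3 values come from 1 array, of a culture whose profile stood apart from the other clones of replicate 2. Clone 15 had the highest ERBB3 response among clones of replicate 1 (0.617), at 0.25. Clone 9 had the lowest SPRY4 response among clones of replicate 2 (0.597), at -0.86. The arrays labelled control 2 of replicate 2 had the weakest INPP4B response of the 6 control cultures (0.644), at -0.27 on the log2 scale. As differences between groups, the response of FGFR3 was 0.67 higher in clones than in control lines, and the ERBB3 difference between replicate numbers was 0.69 larger in clones than in control lines, the second in a test added after the data were seen.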

How the results depend on the processing

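The count of the 7 genes called moved as follows. In clones' response (2 called), it was 1 with a pseudocount of 1, without the filter and in replicate 1 alone (FGFR3), and 0 in replicate 2 alone, with single arrays as replicates, with a variance trend, without the replicate 2 arrays labelled control 2 and clone 1, and with control 3 of replicate 2 left out too (added after seeing the data). In control lines' response (4), it was 2 in replicate 1 alone, 0 in replicate 2 alone and 0 with single arrays; ERBB2 was called too with a pseudocount of 64 (adjusted p = 0.0309) or a filter at the 75th percentile (0.0359). For the difference in response (1), it was 0 with a pseudocount of 1, without the filter, in replicate 1 alone, in replicate 2 alone, with single arrays, with the trend and with the replicate number as a block, and 2 without the doubtful arrays, with or without control 3. For levels in MDV3100 (5), it was 3 with a pseudocount of 1, 2 without the filter, 1 and 2 in replicates 1 and 2 alone, 1 with the block, 0 with single arrays and 2 without the doubtful arrays; ERBB2 was lost with quantile normalization (adjusted p = 0.0544). For levels in DMSO (0), it was 2 (EGFR and SPRY1) with control 3 left out too, and 1 with a pseudocount of 64, a filter at the 75th percentile, replicate 1 alone or the trend. EGFR, ERBB3 and INPP4B have a second probe set above the filter and SPRY2 has only 1 in all; over these 4 genes, with the second probe set where there is one, the counts were 0 in clones' response, 1 in control lines' response, 0 for the difference, 1 in MDV3100 and 1 between replicate numbers. Leaving out 1 line gave 0 to 2 in clones' response, 2 to 5 in control lines' response, 0 to 1 for the difference, 0 to 5 in MDV3100, 0 to 2 in DMSO and 3 to 4 between replicate numbers. The block kept the counts of 2 and 4 for both responses and 0 in DMSO. It changed no other call of a named gene than those in MDV3100 and of FGFR3. It took cultures as units and left the differences the same, so a call changed there reflects the unit and spread, not a changed difference. The other causes were not tested.

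Over all genes, the counts called by limma ranged over these alternatives from 0 to 2126 in DMSO (14 in the fit reported; 2126 without clone 1), 0 to 2326 in MDV3100 (1062), 0 to 195 in clones' response (95), 0 to 1410 in control lines' response (1201), 0 to 147 for the difference (85) and 2142 to 5016 between replicate numbers (3511).

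Signs turned mostly for values near 0. In replicate 1 alone, ERBB2 had 0.0695 for the level in MDV3100 and 0.12 for the difference in response, ERBB3 0.32 and INPP4B -0.25 for the level in DMSO. In replicate 2 alone, the level in MDV3100 was 0.0575 for EGFR and -0.33 for ERBB3, the response was 0.23 for FGFR3 and 0.0569 for SPRY2 in clones and 0.0131 for ERBB3 in control lines, and the difference was -0.0849 for SPRY1. With the second probe set, ERBB3 had 0.14 in DMSO, -0.0461 in MDV3100, -0.00391 in clones' response, 0.18 in control lines' response and -0.19 for the difference; without the doubtful arrays it had 0.0503 in DMSO, and with control 3 left out too 0.0831 in DMSO and 0.0449 in control lines' response. Leaving out 1 line, the difference in response ranged from -0.0167 to 0.0937 for EGFR, from -0.0496 to 0.126 for SPRY1 and from -0.0158 to 0.173 for SPRY2. The ERBB3 level ranged from -0.104 to 0.0936 in DMSO and from -0.0855 to 0.139 in MDV3100, and its response in control lines from -0.0596 to 0.0388. The INPP4B level in DMSO ranged from -0.183 to 0.155, and SPRY1 between replicate numbers from -0.133 to 0.086.

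MAS5 gives dim probe sets noisy values, so ERBB4 and SPRY4 could not be compared, and 3 control lines limit every comparison with clones.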
